A study of Homo sapiens with 3 samples.

Results

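The genes of lower glycolysis and lactate export are 10 protein-coding genes out of the 19974 that RefSeq annotates on chromosomes 1 to 22 and X of GRCh38.p14. They are GAPDH, PGK1, PGAM1, ENO1, ENO2, PKM, LDHA, LDHB, SLC16A1 and SLC16A3, taken by name, and each was given every MYC peak whose summit lay inside the annotated gene or within 5000 bp of it. MYC occupancy was measured by ChIP-Rx, in which chromatin of another species is added before immunoprecipitation as a reference, in parental U2OS cells, an established human osteosarcoma line. The groups were 2 libraries immunoprecipitated with an antibody to MYC and 1 input library made without antibody, all from parental cells of this 1 line with 10% mouse NIH3T3 fibroblasts mixed in. The authors deposited 1 list of peaks, of which the 9818 on chromosomes 1 to 22 and X were used. The list does not separate the libraries, so each gene below has 1 value, no replicate error and no test, and the sequencing depth behind it is unknown.

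Lower glycolysis turns glyceraldehyde 3-phosphate into pyruvate and gives the ATP and NADH of the pathway. Lactate dehydrogenase then reduces pyruvate to lactate, which restores NAD+, and proton-coupled monocarboxylate transporters carry lactate out of the cell. MYC, paired with MAX, binds E-boxes, of which CACGTG is the canonical form, and LDHA is a textbook MYC target among the genes of this pathway.

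MYC peaks were found at 9 of the 10 genes, and the lactate transporter gene SLC16A3 was the exception. Among all protein-coding genes 47.7% had a summit in the same window, and among those between the shortest and the longest member in length (3855 to 44350 bp) 48.5% had one. The strongest peaks lay at ENO1 and LDHB, with fold enrichments of MYC IP over input of 59.3 and 53.1, followed by GAPDH (fold 22.2), LDHA (21.6) and SLC16A1 (19.1). PGAM1 (fold 13.3), PGK1 (12.7), ENO2 (8.07) and PKM (7.13) had lower peaks. The median fold over the 9 genes was 19.1, beside 8.56 over the 9520 protein-coding genes with a peak and 7.78 over all peaks, and 7 of the 9 lay above the protein-coding median. All folds and −log10 q-values are those of the authors' list, with a gene represented by its peak of highest −log10 q.

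The spread within the group was wide. A fold of at least 50 was reached by 2 of the 9 genes and by 0.683% of protein-coding genes with a peak, and a fold of at least 20 by 4 of the 9, beside 9.25%. At the other end, the folds of ENO2 and PKM exceeded those of only 45.8% and 36.5% of protein-coding genes with a peak. The order of the genes by fold cannot be tested, since no spread between libraries can be computed.

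**Figure D1:**
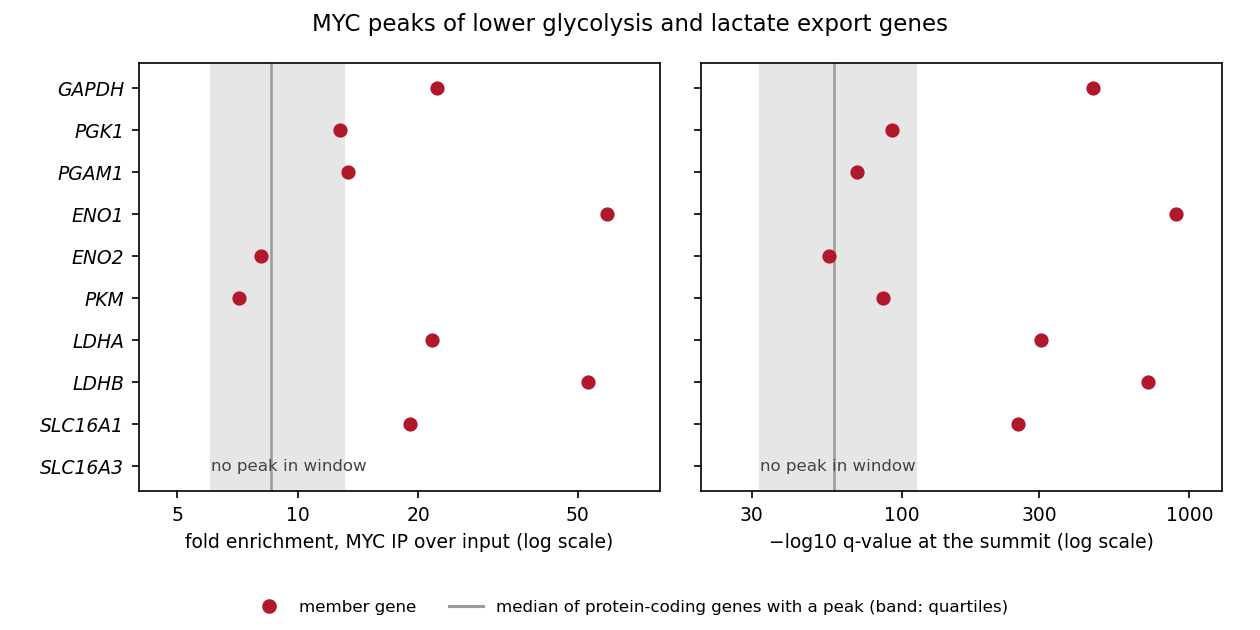
Strongest MYC peak of each gene, as fold enrichment of MYC IP over input (left) and −log10 q-value at the summit (right), both on log axes, with points for single genes, a line at the median of the 9520 protein-coding genes with a peak and a band between their quartiles. ENO1, LDHB, GAPDH, LDHA and SLC16A1 lie right of the band in both panels, while ENO2 lies left of the line in both and PKM in fold alone.

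Every one of the 9 genes had exactly 1 peak in its window, as did 83.6% of all protein-coding genes with a peak. No peak was shared between members. Each of the 9 peaks covered the annotated end of its gene, which holds for the strongest peak of 63.3% of protein-coding genes with a peak. The summits lay 32 to 582 bp from that end (median 183 bp), so 9 of the 10 members had a summit within 1000 bp of an end, beside 37.6% of all protein-coding genes with or without a peak. Of the 9 summits, 6 lay outside the annotated gene and 3 of the 10 genes had a summit inside, beside 25.9% of protein-coding genes. The peaks were 774 to 2317 bp wide with a median of 1464 bp, and all 9 were wider than the median of all peaks (747 bp). Most strongest peaks in the lists compared below were wider too: 7 of 8 in upper glycolysis, 4 of 5 in the paralog list and 8 of 12 in pyruvate use.

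**Figure D2:**
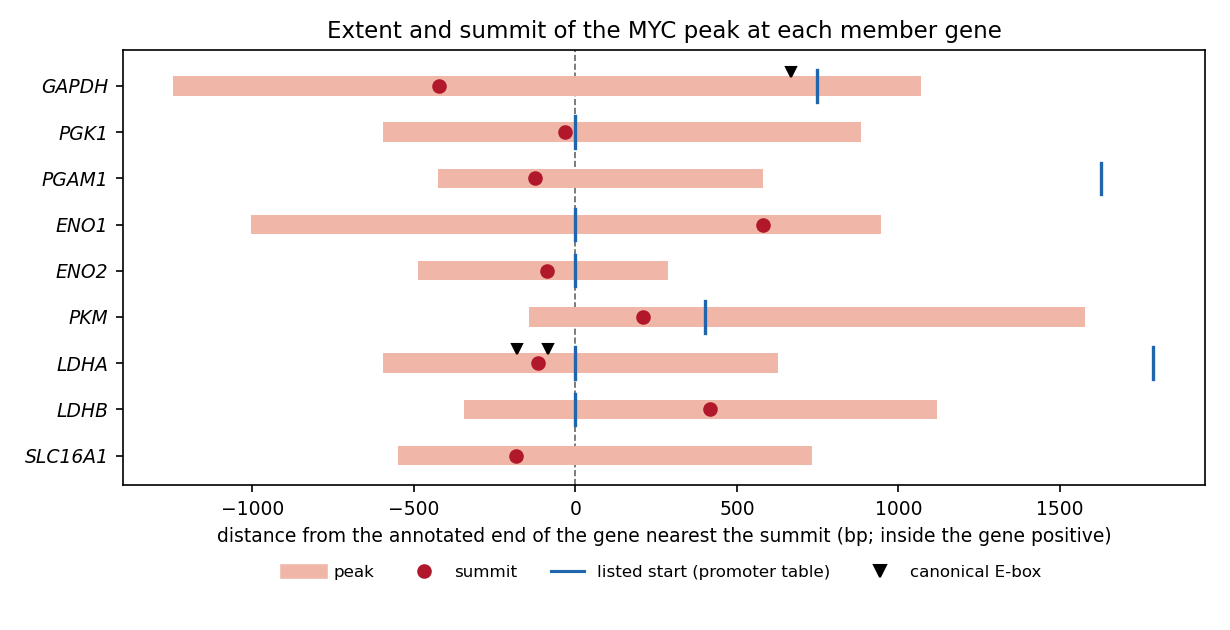
Extent (bars) and summit (red points) of the MYC peak at 9 genes, by distance in bp from the annotated gene end nearest the summit, with positions inside the gene positive. Blue lines mark starts in the RefSeq promoter table and black triangles the canonical E-boxes in those 300-base promoter windows; every bar crosses 0, and the summits of PKM, LDHB and ENO1 lie inside the gene at 208, 417 and 582 bp.

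The RefSeq promoter table gives 300-base windows, from 250 bases before a listed start to 50 after it, and holds 14 windows for 9 of the members. SLC16A1 has no entry. The exons, introns and untranslated regions of the genes were not used here, so a summit inside a gene is placed only by its distance from the end. The 34961 windows of this table are the background for motifs, each searched on both strands. The canonical CACGTG includes the shorter motif ACGTG, and the variant CACGCG includes the shorter motif GCGTG on its other strand, so these matches overlap. A match is a description of the reference sequence only.

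GAPDH encodes glyceraldehyde-3-phosphate dehydrogenase, which makes NADH and 1,3-bisphosphoglycerate. Its peak ran from 6533271 to 6535587 on chromosome 12 with a −log10 q of 461, which ranks 170 among the 9818 peaks, whereas its fold ranks 527. At 2317 bp it was the widest of the 9, and 99.6% of all peaks were narrower. The summit lay 423 bp before the annotated gene, inside the divergent noncoding gene GAPDH-DT and 313 bp from the end of that gene. The listed GAPDH start is 1170 bp from the summit but still inside the peak. Its window holds 1 CACGTG, 1092 bp from the summit, shown here in capitals with the bases on either side (chr12:6535171-6535200, GRCh38.p14, + strand) because it is inside the peak and yet far from its highest point.
GAPDH: gctctgcggggtCACGTGtcgcagaggagc

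PGK1, on the X chromosome, encodes phosphoglycerate kinase, the enzyme of the earlier ATP-yielding step. The peak (78103653 to 78105132) had a fold of 12.7 and reached 92.5 in −log10 q, both higher than the medians of protein-coding genes with a peak (8.56 and 57.7). Among the 8 members with a peak and a listed start, its summit was the closest to such a start, 32 bp before it. The window of that start holds no E-box of the generic form CANNTG, which 68.7% of all windows and 60.4% of those with a summit hold. Neither the variant CACGCG nor the variant CACGAG is in it. The window does hold 3 matches to ACGTG and 1 further match to GCGTG, the core letters of the element read by hypoxia-inducible factors. ACGTG occurs in 21.4% of all windows and in 35.3% of those with a summit, and GCGTG in 36.6% and 62.1%. The 250 bases before the start (chrX:78103998-78104247, GRCh38.p14, + strand) are shown with both of these letter groups in capitals, on whichever strand they lie, as the case of a summit without a CANNTG nearby in the window; the remaining ACGTG lies after the start.
PGK1: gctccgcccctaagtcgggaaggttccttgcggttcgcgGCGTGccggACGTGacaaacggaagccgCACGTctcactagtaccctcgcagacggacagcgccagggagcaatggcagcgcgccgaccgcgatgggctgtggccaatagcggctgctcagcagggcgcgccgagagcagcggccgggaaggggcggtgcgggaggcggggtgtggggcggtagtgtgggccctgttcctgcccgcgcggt

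PGAM1 encodes phosphoglycerate mutase, which moves the phosphate of 3-phosphoglycerate. Its peak on chromosome 10 (97425765 to 97426773) had a fold of 13.3 but the next to lowest −log10 q of the 9, at 69.6. The summit lay 125 bp before the annotated gene and 9 bp from the end of LOC644215, a noncoding gene. The listed PGAM1 start is 1752 bp from the summit and outside the peak, and the window of that start holds no CANNTG. The window listed for LOC644215 covers the summit and holds CACGCG 52 bp from it. This variant E-box is present in 11.4% of all windows and in 25.9% of those with a summit. The same window holds 1 ACGTG 43 bp and 1 CANNTG 80 bp from the summit, both left in lower case below. The part of that window before the annotated PGAM1 gene (chr10:97426008-97426190, GRCh38.p14, − strand) is shown with CACGCG in capitals, since it is the sequence under the summit.
PGAM1: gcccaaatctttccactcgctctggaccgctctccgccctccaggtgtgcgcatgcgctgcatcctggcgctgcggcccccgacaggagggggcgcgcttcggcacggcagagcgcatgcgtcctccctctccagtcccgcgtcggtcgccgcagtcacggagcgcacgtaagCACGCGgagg

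Enolase converts 2-phosphoglycerate to phosphoenolpyruvate. ENO1, the widely expressed form, had the highest peak of all members, its fold being 59.3 (rank 30 of 9818) and its −log10 q 900 (rank 33). That peak reached from 8877739 to 8879691 on chromosome 1, and its summit lay 582 bp inside the gene, the farthest from an end among the 9. The end of the antisense gene ENO1-AS1 was 731 bp from the summit. Neither the canonical CACGTG nor any other site of the form CANNTG is in the listed ENO1 window, which lies in the peak but does not reach the summit.

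ENO2, the enolase form best known from neurons, had a peak on chromosome 12 (6914094 to 6914867) of 8.07-fold enrichment and −log10 q 55.8. This was the narrowest peak of the 9, at 774 bp, and the lowest by −log10 q. The fold at ENO1 was 7.35 times that at ENO2. The ENO2 summit lay 88 bp before the start, inside the window of that start. An end of the gene LRRC23 was 263 bp from the summit, so by distance to an annotated end alone this peak can be given to either gene. The same doubt applies to GAPDH, PGAM1 and SLC16A1, whose summits lay closer to an end of a noncoding gene than to their own. The ENO2 window holds 1 E-box, CATGTG, 18 bp from the summit, and 1 ACGTG 28 bp from it. CATGTG is in 11.1% of all windows and in 6.36% of those with a summit. The 250 bases before the start (chr12:6914330-6914579, GRCh38.p14, + strand) are shown with the E-box in capitals, written there as CACATG because it is the same site read on the other strand.
ENO2: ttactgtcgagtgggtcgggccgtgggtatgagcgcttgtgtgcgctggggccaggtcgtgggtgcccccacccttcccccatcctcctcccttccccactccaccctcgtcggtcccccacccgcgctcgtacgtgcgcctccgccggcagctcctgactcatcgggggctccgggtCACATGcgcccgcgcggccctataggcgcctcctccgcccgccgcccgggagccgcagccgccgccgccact

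PKM encodes the pyruvate kinase forms of most tissues and of tumour cells, which yield pyruvate and ATP. It had the lowest fold of the 9, at 7.13, but a −log10 q of 85.8, higher than that of 65.8% of protein-coding genes with a peak. The peak (72230013 to 72231734 on chromosome 15) was 1722 bp wide, wider than 97.2% of all peaks. It extended 1578 bp into the gene and 143 bp out of it, the most one-sided extent of the 9. The summit lay 208 bp inside the annotated end and 193 bp before the listed start. The nearest CANNTG of the listed window was 202 bp from the summit, and CACGCG lay 208 bp from it.

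**Figure D3:**
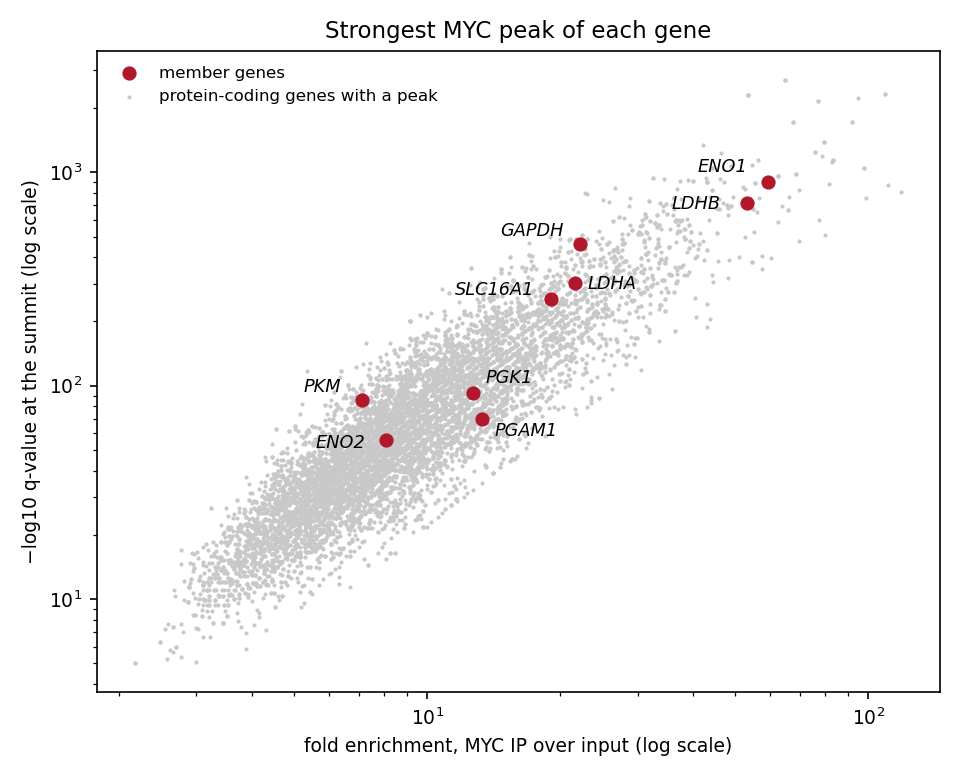
Fold enrichment of MYC IP over input (x) against −log10 q-value (y), both on log axes, at the strongest peak of each of the 9520 protein-coding genes with a peak (grey) and of the 9 members with one (red). ENO1 and LDHB lie near the upper right corner, and PKM lies at the upper edge of the cloud for its fold of 7.13.

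The lactate dehydrogenase genes encode the subunits that combine into tetramers, LDHA being the muscle and LDHB the heart form. Both had high peaks, and LDHB had the higher. LDHB reached 53.1-fold enrichment (rank 45) and a −log10 q of 717 (rank 66), in a peak from 21656724 to 21658187 on chromosome 12. LDHA reached 21.6-fold enrichment (rank 564) and a −log10 q of 304 (rank 385), in a peak from 18393969 to 18395191 on chromosome 11. The ratio of the LDHB to the LDHA fold was 2.46, or 1.30 log2 units, with no replicate error. The summits differed in place, since that of LDHB lay 417 bp inside the gene and that of LDHA 117 bp before it.

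Among the members' windows, CACGTG lay closer to the summit at LDHA than at GAPDH, the other member that holds it. The LDHA window holds 2 CACGTG sites, whose centres are 66 and 32 bp from the summit on either side of it. CACGTG is in 7.27% of all windows, in 17.1% of the 4683 windows that contain a MYC summit and in 5.75% of those that contain none. Of the members' 14 windows 2 hold it, that of LDHA and that of GAPDH. The second listed LDHA start lies outside the peak, and its window holds the variant CACGCG but no site of the form CANNTG. The 250 bases before the LDHA start nearest the summit (chr11:18394313-18394562, GRCh38.p14, + strand) are shown with both CACGTG sites in capitals, because the summit falls between them.
LDHA: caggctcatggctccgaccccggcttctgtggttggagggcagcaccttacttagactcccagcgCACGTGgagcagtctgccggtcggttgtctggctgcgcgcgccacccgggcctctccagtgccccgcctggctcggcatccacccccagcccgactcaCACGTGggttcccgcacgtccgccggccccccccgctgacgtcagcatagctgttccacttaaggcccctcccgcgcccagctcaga

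For LDHB the listed window lies in the peak but ends short of the summit, as for ENO1. It holds no CACGTG but has 3 matches to the generic CANNTG, the nearest 384 bp from the summit. Thus for the genes with the highest folds the sequence under the summit was not examined. The listed windows that contained the summit of their own gene were those of 4 members, ENO2, LDHA, PGK1 and PKM. A listed start lay within 1000 bp of a summit for 6 of the 9 members in the promoter table, beside 41.5% of all protein-coding genes in it.

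GC boxes, GGGCGG, were present in 11 of the 14 windows of the members, though not in the LDHA window that holds the summit. This motif is in 45.0% of all windows, in 74.4% of those with a summit and in 40.5% of those without. Windows with a summit also have a higher GC content, with medians of 67.0% in windows with a summit and 56.7% in windows without. The part of base composition in these motif shares was not tested.

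The monocarboxylate transporters were split. SLC16A1, which encodes MCT1, had 19.1-fold enrichment and a −log10 q of 254, in a peak from 112955464 to 112956744 on chromosome 1. The summit lay 183 bp outside the gene and 36 bp from the end of SLC16A1-AS1, a noncoding gene. SLC16A3, which encodes MCT4, the transporter best known from strongly glycolytic cells, had no summit inside the gene or within 5000 bp. The nearest one lay 5053 bp below the gene, just past the limit, at position 82212881 on chromosome 17, in a peak of 8.87-fold enrichment whose −log10 q was 90.5. That summit was 39 bp from the end of CCDC57 and 15554 bp from the nearest of the 5 listed SLC16A3 starts. On the other side the nearest summit lay 33121 bp away, 543 bp from an end of CSNK1D, with a fold of 9.55. Among the members with a peak, the summit farthest outside its gene was that of GAPDH at 423 bp, so no member lay close to the limit from within. The absence of a peak says that no enrichment at SLC16A3 passed the authors' threshold, whose lowest listed −log10 q is 5.00, and not that MYC was absent.

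The list of paralogs of the members, many with tissue-restricted expression, also holds LDHD. That gene encodes a D-lactate dehydrogenase and is not a paralog of LDHA or LDHB. On this list 5 of 13 genes, or 38.5%, had a peak, beside 9 of 10 members and 47.7% of all protein-coding genes. The muscle enolase gene ENO3 had the highest fold of these paralogs, 32.2, with a summit 665 bp from a listed start. GAPDHS, a testis form, had a fold of 20.6, but its summit lay 16 bp from the end of TMEM147 and 12154 bp from the listed GAPDHS start. SLC16A7, which encodes the transporter MCT2, had a fold of 8.82. LDHD (5.24) and PKLR, the pyruvate kinase gene of liver and red cells (4.31), had lower peaks, and the PKLR summit lay 111 bp from an end of FDPS. The LDHD summit lay 2733 bp outside the gene, and its peak did not cover the gene end. No peak was given to PGK2, PGAM2, PGAM4, ENO4, LDHC, LDHAL6A, LDHAL6B or SLC16A8.

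In upper glycolysis and glucose uptake 8 of 12 genes had a peak, with a median fold of 10.9 and a highest fold of 19.9, at HK2. Of the genes that handle pyruvate in mitochondria or escort the transporters to the membrane, 12 of 16 had one, with a median of 9.34 and a highest fold of 13.7. By annotated ends the peaks differed in place. The nearest end was covered by 3 of the 8 and 10 of the 12 strongest peaks, beside all 9 of the members. Among genes with a peak and a listed start, the strongest summit lay within 1000 bp of one in 6 of 8 members. The same held for 6 of 8 upper glycolysis and 11 of 11 pyruvate genes. In upper glycolysis the strongest summits of SLC2A1 and HK1 lay 11256 and 48534 bp inside the gene. The HK1 summit was 353 bp from a listed start, and that of SLC2A1 22259 bp. No gene of either list reached a fold of 20, which ENO1, LDHB, GAPDH and LDHA did. The paralogs ENO3 (32.2) and GAPDHS (20.6) reached it too, while HK2 (19.9) and the member SLC16A1 (19.1) fell just short. With summits inside the gene alone the order of the shares turned, with 3 of 10 members, 7 of 12 genes of upper glycolysis and 8 of 16 of pyruvate use. These differences between lists are counts in 1 peak list and were not tested.

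**Figure D4:**
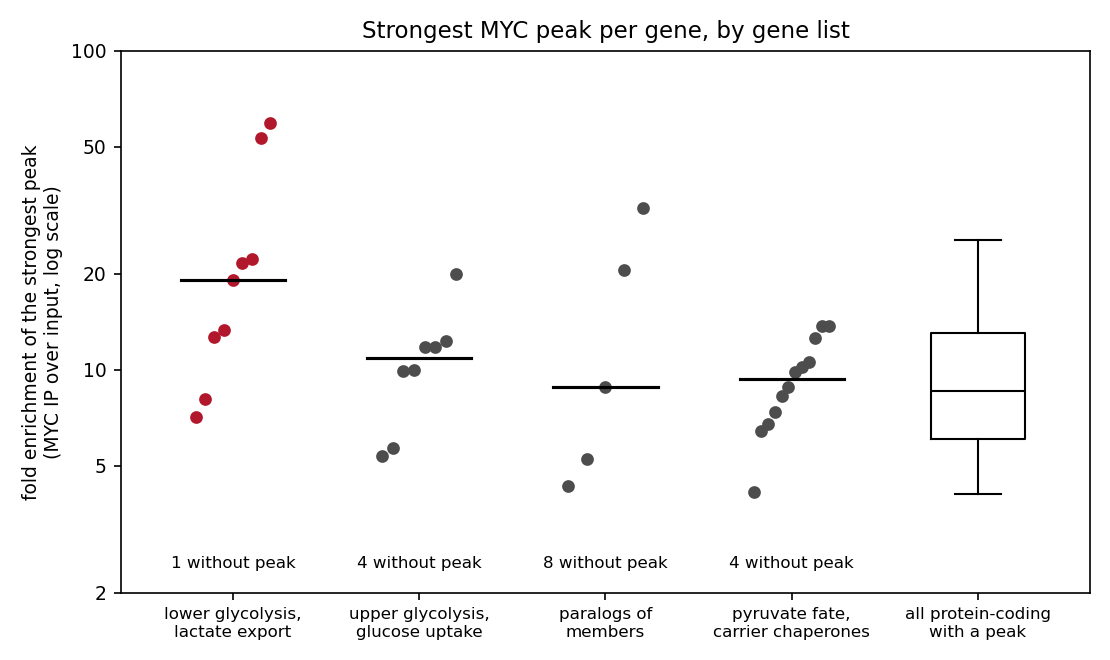
Fold enrichment of MYC IP over input (log axis) at the strongest peak of each gene, with a point per gene, a line at the median of each list, and the number of genes without a peak below. The box gives the quartiles and median, and the whiskers the range from the lowest to the highest 5%, of the protein-coding genes with a peak; the median of the members is 19.1, beside 10.9, 8.82 and 9.34 in the other lists.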

How the data were processed

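MYC ChIP-Rx in U2OS cells was represented by 1 peak list that the authors deposited for a series of 2 IP libraries and 1 input. Per the submitters' processing notes, the tools were MACS2, Picard, SAMtools, Bowtie2 and cutadapt, listed without order, roles or versions, with hg38, hg19 and mm10 as builds. The name of the peak list itself gives hg38. Whether the IP libraries were pooled, and how mouse reads were used, is not given in the sources used here. The deposited list gives a fold enrichment over control as a linear ratio, a −log10 q-value per summit and a score, of which the score was not used; its column of −log10 p-values was not used either. Coordinates are 1-based.

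Summits were assigned to RefSeq gene spans (GRCh38.p14, chromosomes 1 to 22 and X) within 5000 bp with Python 3.11.15 and pandas 2.3.3. A gene takes its peak of highest −log10 q. The assignment and motif search were tested on simulated data. RefSeq promoter windows supplied starts, strands and sequence. All members and their neighbours within 1000 bp of a summit are named, and the 3 strongest genes of each other list. Neighbours of other peaks, and further paralogs and pyruvate genes with values, were chosen after their values were seen. The members and lists were chosen with earlier results of these data known. Alternatives were other windows, any base of the peak, stricter thresholds, choice by fold and other E-box forms.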

Additional observations from a re-analysis of the deposited data

How the results depend on the processing

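The strongest fold of each single member was the same under every alternative that still gave it a peak. Each of the 9 had 1 peak, with a −log10 q of 55.8 or more. Choice by fold, narrower windows and the stricter thresholds therefore could not change a member's fold. Peaks were found at 9 members with a window of 1000 bp (44.1% of protein-coding genes), within 1000 bp of an annotated end (37.6%), with a −log10 q of at least 10 (47.2%), in the stronger 50% of peaks and with shared peaks counted once. No peak was shared between members, so that last count could not differ. Windows of 10000 bp (50.9%), or any base of the peak (47.9%), gave all 10 members a peak through SLC16A3, and the median fold was then 16.2.

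With summits inside the gene alone, 3 of 10 members (3 peaks, median fold 53.1), 7 of 12 upper glycolysis genes, 8 of 16 pyruvate genes, 2 paralogs and 5167 protein-coding genes, or 25.9%, had a peak, so the members then had a smaller share than the upper glycolysis and pyruvate lists. In the stronger 50% of peaks, 5 upper glycolysis genes, 2 paralogs, 7 pyruvate genes and 5527 protein-coding genes, or 27.7%, had one. Of the 9 members with promoter windows, 2 held CACGTG, 3 held it or the variant CACGCG and 6 held the generic CANNTG. By window, CACGTG was in 2 of their 14 windows (7.27% of all windows), either form in 4 (17.4%) and the generic form in 7 (68.7%). Libraries could not be left out, since the list does not separate them. No paired analysis was possible because no value belongs to a single library and no result comes from a test.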

Other observations

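In upper glycolysis the strongest peaks by −log10 q lay at HK2, the hexokinase gene linked to tumour glycolysis (fold 19.9, −log10 q 245), ALDOA, an aldolase gene (12.3 and 110), and TPI1, the triosephosphate isomerase gene (11.8 and 106). SLC2A1, the gene of the glucose transporter GLUT1, had 3 peaks in its window, more than any member of lower glycolysis. The peak given to GPI lay 353 bp from an end of PDCD2L and 39760 bp from the listed GPI start, so it can be given to the neighbour. The strongest summit lay within 1000 bp of a listed start in 6 of the 8 genes with a peak.

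Among genes of pyruvate use, the strongest by −log10 q were DLAT, a subunit of pyruvate dehydrogenase (fold 10.6, −log10 q 155), MPC1, a subunit of the mitochondrial pyruvate carrier (13.7 and 125), and MPC2, its partner (13.7 and 83.4). The genes PDHA1, PDHB, PDHX and DLD of the same dehydrogenase complex also had peaks, with folds of 8.26, 6.75, 10.2 and 7.39. Of the kinases that switch this complex off, PDK1 had a peak with a fold of 12.6, whereas PDK2, PDK3 and PDK4 had none. BSG, whose product escorts MCT1 and MCT4 to the membrane, had a fold of 6.41, and EMB, the gene of a related escort protein, had no peak.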
